A study of Mus musculus with 4 samples.

Results

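The genes described here code for enzymes that make serine, one-carbon units, asparagine and proline, together with cystathionine beta-synthase. They are 10 genes (Asns, Phgdh, Psat1, Psph, Shmt2, Mthfd2, Mthfd1l, Aldh18a1, Pycr1 and Cbs), picked by symbol from the 32285 genes of the deposited single-cell matrices, and all 10 symbols were found. Pancreatic islets from wild type male C57BL6J mice, 8 weeks old, were kept in culture for 24 h, then dispersed and run as single cells on the 10x Genomics platform. The 4 libraries were islets given DMSO (the vehicle) at 3.9 mM glucose, 1 mM imeglimin at 3.9 mM glucose, DMSO at 11.1 mM glucose, and 1 mM imeglimin at 11.1 mM glucose. Imeglimin is an oral drug for type 2 diabetes. Each condition was 1 library, and the labels do not give how many mice its islets came from, so there is no measure of the spread between replicates and no test of any difference. The question the design addresses is how imeglimin alters gene expression of islet cells at a low and at a higher glucose concentration.

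Serine is made from 3-phosphoglycerate, an intermediate of glycolysis, by the enzymes PHGDH, PSAT1 and PSPH in turn. In mitochondria SHMT2 splits serine into glycine and a one-carbon unit carried on folate, MTHFD2 oxidises that unit, and MTHFD1L releases it as formate for purine, thymidylate and methionine synthesis in the cytosol. ASNS makes asparagine from aspartate and glutamine, ALDH18A1 and PYCR1 catalyse the first and the last steps of proline synthesis from glutamate, and CBS condenses serine with homocysteine in transsulfuration. Many genes of these routes are known targets of ATF4, a transcription factor of the amino acid and endoplasmic reticulum stress responses, and beta cells, as secretory cells, carry a high load of protein synthesis.

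The stretches just upstream of the 6 members that were at least 1.5-fold higher with imeglimin in alpha-like cells at both glucose concentrations are shown, because their levels are the main subject below and because the composite site TGATGNAA, through which ATF4 acts with a C/EBP partner, is known from the ASNS promoter. Pycr1 is among the 6 by a narrow margin at 11.1 mM glucose, past 1.5-fold in 7 of 14 alternative ways of processing. Each stretch is the 120 bases before the RefSeq transcription start (build GRCm38.p6), written 5′ to 3′ on the gene's strand. Capitals mark matches on either strand to that site, to the E-box with the letters CACGTG, to the box named CCAAT, or to the GC box with the letters GGGCGG.
Asns, chr6:7693210-7693329, minus strand: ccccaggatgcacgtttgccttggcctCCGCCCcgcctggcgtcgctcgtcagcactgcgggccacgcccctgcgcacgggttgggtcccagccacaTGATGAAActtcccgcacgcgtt
Phgdh, chr3:98339970-98340089, minus strand: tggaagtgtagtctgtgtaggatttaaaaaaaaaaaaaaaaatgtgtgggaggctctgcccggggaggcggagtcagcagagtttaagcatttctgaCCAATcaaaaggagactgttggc
Psat1, chr19:15925060-15925179, minus strand: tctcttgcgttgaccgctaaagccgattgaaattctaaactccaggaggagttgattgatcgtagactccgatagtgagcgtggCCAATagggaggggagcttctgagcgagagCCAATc
Psph, chr5:129787254-129787373, minus strand: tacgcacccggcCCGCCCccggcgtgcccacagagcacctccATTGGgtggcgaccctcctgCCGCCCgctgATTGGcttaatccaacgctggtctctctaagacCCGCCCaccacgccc
Mthfd2, chr6:83317605-83317724, minus strand: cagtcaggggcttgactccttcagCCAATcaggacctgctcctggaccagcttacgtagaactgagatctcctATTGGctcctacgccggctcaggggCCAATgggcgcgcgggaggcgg
Pycr1, chr11:120643749-120643868, minus strand: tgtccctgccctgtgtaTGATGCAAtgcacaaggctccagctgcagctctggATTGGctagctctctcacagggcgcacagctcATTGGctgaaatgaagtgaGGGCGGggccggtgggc

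The TGATGNAA match of Asns begins 23 bases before the start and that of Pycr1 begins 103 bases before it. A gene was counted if any of its RefSeq windows of 300 bases (250 before to 50 after a start) held a match. TGATGNAA was found for 4.51% of 27025 genes and for 2 of the 10 members (Asns and Pycr1). CCAAT was found for 41.1% of the genes and for 6 members (Phgdh, Psat1, Psph, Mthfd2, Pycr1 and Cbs). GGGCGG was found for 38.2% of the genes and for 7 members, all but Phgdh, Shmt2 and Mthfd2. For Psat1 it lay in another window than that of the stretch shown. CACGTG was found for 8.09% of the genes and for 2 members (Aldh18a1 and Cbs). Phgdh, Psat1, Psph and Mthfd2 had no TGATGNAA match in any of their windows, which says only that these letters are not there. The RefSeq start used for Psat1 lies 22278 bases, and that for Mthfd2 8304 bases, from the outermost start of the GENCODE vM21 gene model. All 10 genes are protein coding in GENCODE vM21 (GRCm38). They lie on chromosomes 3 (Phgdh), 5 (Psph), 6 (Asns and Mthfd2), 10 (Shmt2 and Mthfd1l), 11 (Pycr1), 17 (Cbs) and 19 (Psat1 and Aldh18a1), with Asns at 7675169 to 7693254 and Mthfd2 at 83305691 to 83325908 on chromosome 6.

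The libraries held 8073 to 10134 barcodes and between 91245564 and 106092232 UMIs (unique molecular identifiers, a count of captured RNA molecules), with a median per kept cell between 8832 UMIs in the imeglimin library at 3.9 mM glucose and 12035 UMIs in the vehicle library at 11.1 mM. Pairs of libraries shared 15 to 24 barcodes. Cells were clustered and clusters named from marker genes, which gave 4445 to 5426 beta-like, 599 to 1091 alpha-like and 233 to 425 delta-like cells per library. Clusters of mixed or unclear markers, 12.4% to 22.1% of kept cells, stayed unnamed. Because the names were rebuilt from these data, and different clusters hold most of a class in different libraries, a difference may be partly one of which cells bear the name. CPM here is the share of a class's UMIs in a library that a gene holds, scaled up by a fixed factor. In alpha-like cells the 9 alpha markers found (Gcg, Ttr and others) summed to 164277 to 183422 CPM, with none at 0 in any library. In delta-like cells the 7 delta markers summed to 34686 to 89834 CPM with 1 or 2 at 0, while pancreatic polypeptide markers summed to 26341 to 105093 CPM and beta markers to 45343 to 79915 CPM, so the delta-like clusters carry RNA of other hormone genes.

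Imeglimin libraries had far more RNA of these genes in alpha-like cells. For each level, UMIs were added up across a class's cells within a library and given as CPM, scaled with TMM (trimmed mean of M values) separately within each class. The 10 genes together stood at 148 CPM (95% counting interval 139 to 159) with vehicle and 718 CPM (699 to 736) with imeglimin at 3.9 mM glucose. At 11.1 mM glucose they stood at 149 CPM (137 to 161) and 331 CPM (316 to 347). The order was the same at both glucose concentrations, with the imeglimin library higher and the larger gap at 3.9 mM. Intervals of levels and of single ratios are exact intervals on UMI counts and cover counting error alone.

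**Figure D1:**
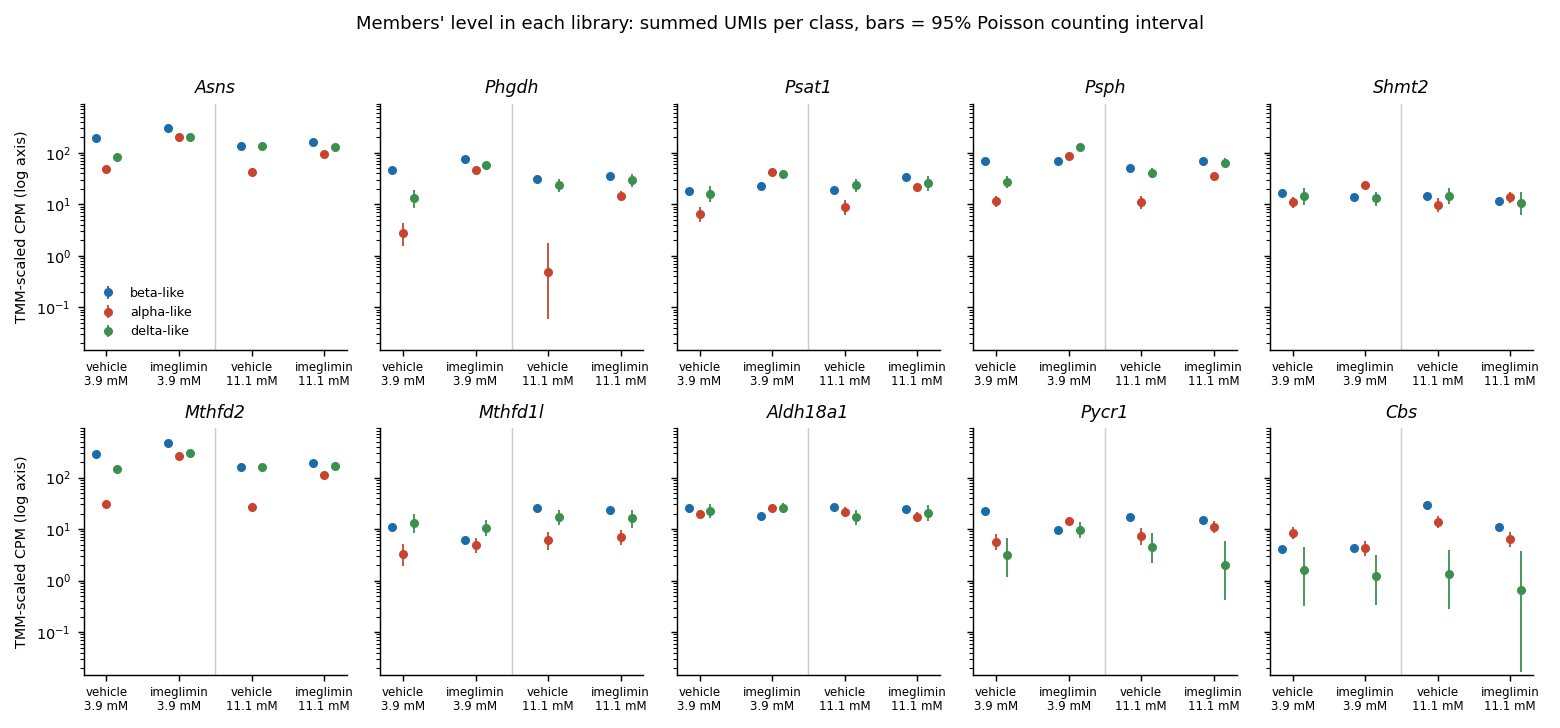
Level of each of the 10 genes (CPM, TMM-scaled within each class, log axis) in the 4 libraries, 1 panel per gene, with points for beta-like, alpha-like and delta-like cells and bars for the 95% counting interval. In alpha-like cells the Mthfd2 points sit at 31.2 and 266 CPM with vehicle and imeglimin at 3.9 mM glucose, while in beta-like cells Cbs sits highest, at 29.7 CPM, in the vehicle library at 11.1 mM.

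Mthfd2, the mitochondrial one-carbon dehydrogenase, stood in alpha-like cells at 31.2 CPM (183 UMIs) with vehicle and 266 CPM (2172 UMIs) with imeglimin at 3.9 mM glucose. It stood at 26.8 CPM (111 UMIs) and 111 CPM (616 UMIs) at 11.1 mM. Both imeglimin libraries were above both vehicle libraries, by 8.52-fold at 3.9 mM glucose (log2 ratio 3.09) and 4.17-fold at 11.1 mM (log2 ratio 2.06). Asns, asparagine synthetase, stood at 48.5 and 203 CPM with vehicle and imeglimin at 3.9 mM glucose, and at 43.2 and 93.4 CPM at 11.1 mM. Its log2 ratios of imeglimin to vehicle were 2.07 (1.89 to 2.25) and 1.11 (0.87 to 1.37). The vehicle levels of Mthfd2 and Asns at both glucose concentrations lay close together, while the imeglimin levels did not.

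The serine synthesis genes showed the same order of libraries in alpha-like cells. Phgdh, the first enzyme of the route, was near the limit of detection with vehicle, at 2.72 CPM (16 UMIs) and 0.482 CPM (2 UMIs) at 3.9 and 11.1 mM glucose, and stood at 47.0 CPM (384 UMIs) and 14.5 CPM (80 UMIs) with imeglimin. Its log2 ratio at 3.9 mM was 4.11 (3.39 to 4.93), which became 5.39 once an estimate of beta-cell RNA, 62.0% of the vehicle UMIs, was subtracted, and the ratio at 11.1 mM rests on 2 UMIs (log2 4.91, interval 3.01 to 7.98). Psph, the phosphatase of the last step, stood at 11.6 and 86.6 CPM with vehicle and imeglimin at 3.9 mM, and at 11.1 and 34.7 CPM at 11.1 mM. Psat1, the aminotransferase between them, stood at 6.47 and 41.9 CPM at 3.9 mM, and at 8.68 and 22.1 CPM at 11.1 mM. All 3 enzymes of the route were thus at least 1.5-fold higher with imeglimin at both glucose concentrations, except that in cells of 10000 or more UMIs and at most 5% mitochondrial UMIs the Psat1 log2 ratio at 11.1 mM was 0.29 in place of 1.35.

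The other members had smaller or opposite differences in alpha-like cells. Shmt2, the mitochondrial serine hydroxymethyltransferase, stood at 11.1 and 23.8 CPM with vehicle and imeglimin at 3.9 mM glucose, and at 9.88 and 13.6 CPM at 11.1 mM. Pycr1, of proline synthesis, stood at 5.62 and 14.4 CPM at 3.9 mM, and at 7.23 and 11 CPM at 11.1 mM. Its log2 ratio at 11.1 mM was 0.61, on 30 and 61 UMIs. Across alternative settings that ratio ran from 0.15 to 0.89, and it was past 1.5-fold in 7 of 14. Cbs went the other way, at 8.51 and 4.28 CPM at 3.9 mM and 14.0 and 6.33 CPM at 11.1 mM. Mthfd1l and Aldh18a1 had log2 ratios of 0.60 and 0.39 at 3.9 mM, and of 0.19 and -0.32 at 11.1 mM.

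Read against all genes, 3 members (Asns, Psph and Mthfd2) reached 50 CPM in either library of the 3.9 mM comparison, and all 3 were at least 1.5-fold higher with imeglimin, beside 13.4% of the 3305 genes that reached this level, while 7.62% were at least 1.5-fold lower. At 11.1 mM glucose 2 members reached it (Asns and Mthfd2) and both were at least 1.5-fold higher, beside 6.55% of 3175 genes higher and 4.88% lower. All of these members reached 50 CPM only with imeglimin. With vehicle Asns, Psph and Mthfd2 stood at 48.5, 11.6 and 31.2 CPM at 3.9 mM. At 11.1 mM Asns and Mthfd2 stood at 43.2 and 26.8 CPM with vehicle. Members that passed in this way could only be higher, so their counts are a description only. With all 10 members counted whatever their level, 8 were at least 1.5-fold higher and 1 lower (Cbs) at 3.9 mM, and 6 higher and 1 lower (Cbs) at 11.1 mM. No share over all genes at any level is given here, so these counts have nothing to be set against. Mthfd1l is among the 8 on 19 and 40 UMIs, and was past 1.5-fold in 8 of 14 alternative settings. The median log2 ratio over the 10, most of them under 50 CPM in both libraries, was 1.71 at 3.9 mM and 0.86 at 11.1 mM. Over the genes that reached 50 CPM, which is an unlike set, it was 0.09 and 0.06. Mthfd2 ranked 6th, Psph 7th and Asns 16th from the top of 3305 genes at 3.9 mM, and Mthfd2 9th and Asns 42nd of 3175 at 11.1 mM. The split of all genes past 1.5-fold depends on the scaling, with 63.7% of them higher at 3.9 mM under TMM and 30.3% under plain CPM, and 57.3% and 35.3% at 11.1 mM.

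**Figure D2:**
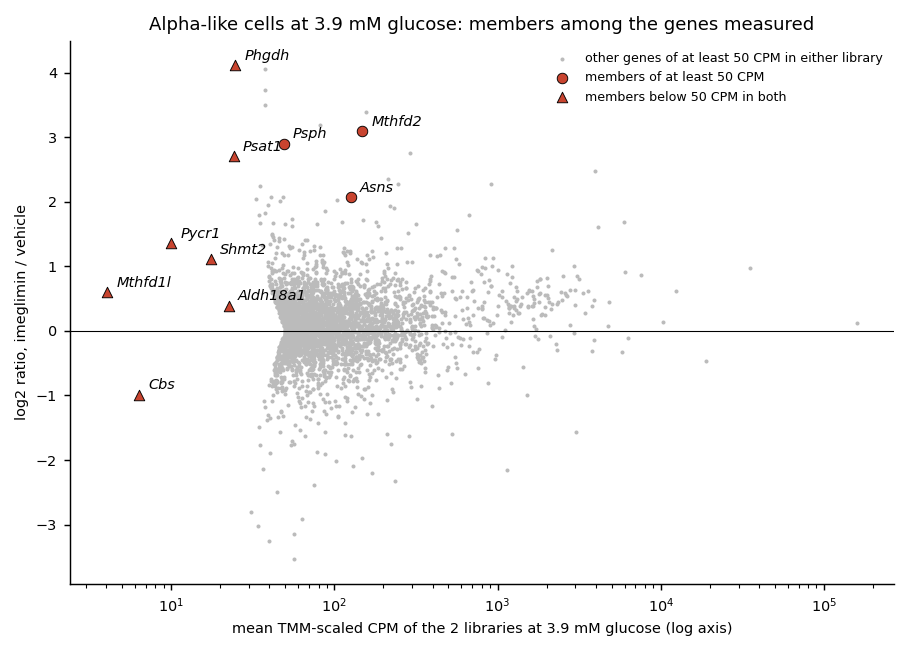
Genes of at least 50 CPM in either library (dots and circles) and members below it (triangles) in alpha-like cells at 3.9 mM glucose, with its mean level (CPM, log axis) on the x axis and its log2 ratio of imeglimin to vehicle on the y axis; members are marked by name. Mthfd2 at 3.09, Psph at 2.90 and Asns at 2.07 lie near the upper edge of genes at their level, and Cbs lies below 0.

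Markers of beta cells also differed between these alpha-like sums, and none of the 10 beta markers was at 0. They summed to 8098 and 18554 CPM with vehicle and imeglimin at 3.9 mM glucose, and to 7534 and 13159 CPM at 11.1 mM. Delta markers summed to 911 and 2086 CPM at 3.9 mM and to 822 and 1984 CPM at 11.1 mM, with 1 to 3 of the 7 at 0. Ins2, at 3.15%, 4.64%, 1.34% and 1.88% of its beta-like level in the 4 libraries, gives a measure of beta-cell RNA in these sums. At those shares beta-cell RNA would hold at most 8.77% of any member's alpha-like level with imeglimin (Mthfd2 at 3.9 mM), but 62.0% and 75.5% of the few Phgdh UMIs with vehicle at 3.9 and 11.1 mM. With that RNA subtracted, 23 of the 23 ratios of members past 1.5-fold in alpha-like cells stayed past it. The 23 cover the imeglimin and the glucose comparisons. They leave out the Phgdh ratios that use the vehicle library at 11.1 mM, where Phgdh had 2 UMIs. Vehicle alpha-like cells came mostly from clusters 30, 31 and 32 (each with Gcg among its leading genes) and imeglimin cells mostly from clusters 37, 38 and 39 (led by Gcg, Higd1a and Ttr). Mthfd2 stood at 26.6 to 34.3 CPM in the first set of clusters and at 68.0 to 242 CPM in the second.

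Counted as the share of cells with at least 1 UMI, the difference was spread over many alpha-like cells. With every cell thinned to 3000 UMIs, Mthfd2 was seen in 7.50% (44 of 587) and 48.9% (520 of 1063) of alpha-like cells with vehicle and imeglimin at 3.9 mM glucose, and in 7.61% and 26.1% at 11.1 mM. Asns was seen in 11.9% and 42.9% at 3.9 mM, and in 11.4% and 22.5% at 11.1 mM. Phgdh was seen in 0.681% (exact interval 0.186% to 1.74%) and 10.4% (8.67% to 12.4%) at 3.9 mM. At least 1 of the 10 genes was seen in 34.6% and 80.8% of cells at 3.9 mM, and in 35.3% and 53.6% at 11.1 mM. In unthinned cells, with medians of 7470, 6982, 5855 and 5806 UMIs, the Mthfd2 shares were 21.3%, 74.3%, 15% and 39.6%. The 1% of alpha-like cells with most Mthfd2 UMIs held 16.4% of them with vehicle and 5.48% with imeglimin at 3.9 mM, and no cell held more than 15.

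**Figure D3:**
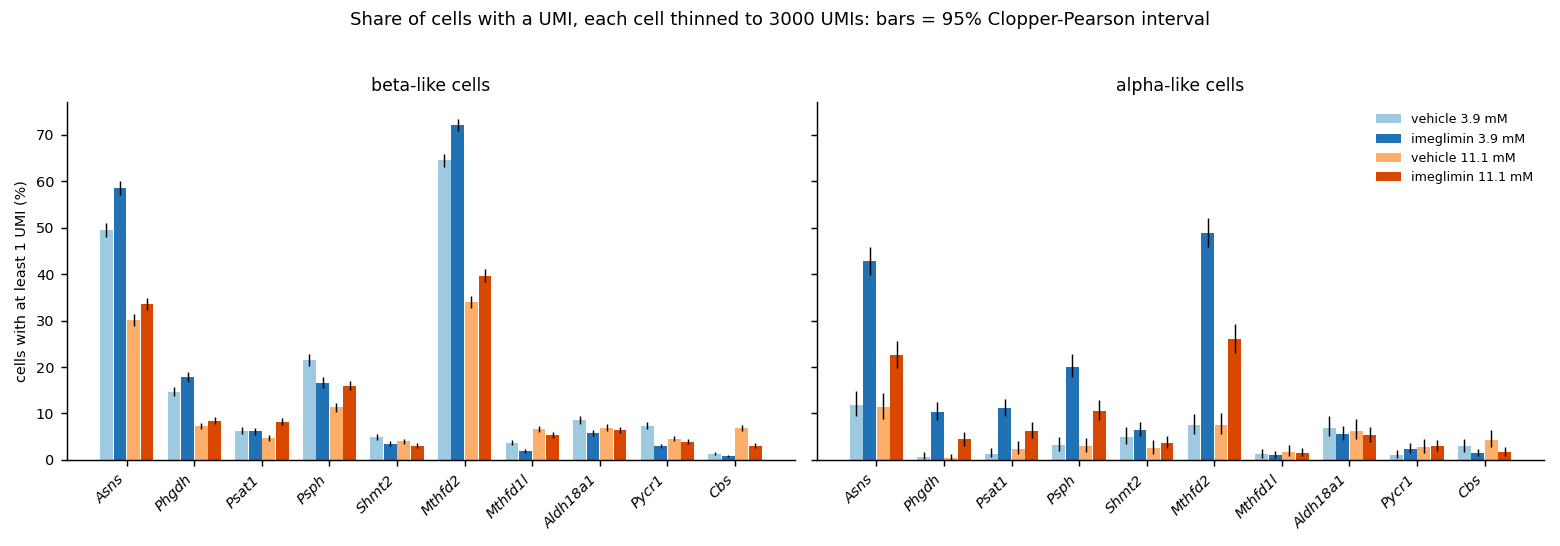
Share of beta-like and alpha-like cells with at least 1 UMI of each gene after thinning every cell to 3000 UMIs (percent, y axis), by library, with exact binomial 95% intervals as bars. Mthfd2 goes from 7.50% to 48.9% of alpha-like cells between vehicle and imeglimin at 3.9 mM glucose, and from 64.5% to 72.1% of beta-like cells.

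Macrophage-like cells, as a non-endocrine class of similar depth, gave shares for comparison. Asns was seen in 3.09% and 10.6% of thinned macrophage-like cells with vehicle and imeglimin at 3.9 mM glucose, and in 4.21% and 1.71% at 11.1 mM (medians of 7024, 5115, 5539 and 4316 UMIs). Cbs was seen in 0 of 97, 66, 95 and 117 macrophage-like cells, with exact upper bounds of 3.73%, 5.44%, 3.81% and 3.10%. Mthfd2 was seen in 9.28% (9 of 97) and 33 of 66 macrophage-like cells at 3.9 mM and in 10.5% and 18.8% at 11.1 mM, so this class does not serve as a background for Mthfd2. Phgdh was seen in 1 of 97 macrophage-like cells with vehicle at 3.9 mM (1.03%), above the alpha-like share. On that 1 cell, Phgdh in alpha-like cells with vehicle at 3.9 mM cannot be told apart from background. With imeglimin it was seen in 6.06% of macrophage-like cells at 3.9 mM (4 of 66, exact interval 1.68% to 14.8%), beside the alpha-like share of 10.4%. At 11.1 mM with imeglimin it was seen in 0 of 117 macrophage-like cells (exact upper bound 3.10%) and 4.41% of alpha-like cells (3.11% to 6.06%). These intervals cover the sampling of cells within 1 library alone, so no difference between the classes is read from them.

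In beta-like cells Asns, Phgdh and Mthfd2 were higher with imeglimin at 3.9 mM glucose, and Pycr1 and Mthfd1l were lower. Mthfd2 stood at 290 CPM (21522 UMIs) with vehicle and 472 CPM (25182 UMIs) with imeglimin at 3.9 mM, and at 157 and 190 CPM at 11.1 mM. Asns stood at 192 and 309 CPM at 3.9 mM, and at 137 and 159 CPM at 11.1 mM. The fold differences at 3.9 mM were 1.63 for Mthfd2 and 1.61 for Asns, and at 11.1 mM 1.21 and 1.16. The imeglimin library at 3.9 mM was the highest of the 4 for both genes and the vehicle library at 11.1 mM the lowest. Phgdh stood at 46.9 and 74.6 CPM at 3.9 mM (1.59-fold), and at 30.7 and 35.2 CPM at 11.1 mM (1.15-fold), in the same order.

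Psat1 and Psph, which share a route with Phgdh, did not keep its order in beta-like cells. Psat1 stood at 17.8 and 22.6 CPM with vehicle and imeglimin at 3.9 mM glucose, and at 19.2 and 33.4 CPM at 11.1 mM, where its log2 ratio was 0.80 (0.70 to 0.89). Psph stood at 70.3 and 68.1 CPM at 3.9 mM, and at 50.5 and 69.5 CPM at 11.1 mM. For both genes the larger difference was at 11.1 mM. The log2 ratio at 11.1 mM minus that at 3.9 mM was 0.45 (0.30 to 0.60) for Psat1 and 0.51 (0.42 to 0.59) for Psph, against -0.48 (-0.53 to -0.42) for Asns, -0.47 (-0.58 to -0.37) for Phgdh and -0.43 (-0.47 to -0.38) for Mthfd2. Intervals of these differences use a normal approximation on the log scale and cover counting error alone.

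Pycr1 and Mthfd1l were past 1.5-fold lower with imeglimin in beta-like cells at 3.9 mM glucose, and neither was past it at 11.1 mM. Pycr1 stood at 22.8 and 9.78 CPM with vehicle and imeglimin at 3.9 mM (2.33-fold lower), and at 16.8 and 14.7 CPM at 11.1 mM. Mthfd1l, the formate-releasing enzyme, stood at 11.1 and 6.02 CPM at 3.9 mM (1.84-fold lower), and at 26 and 23.0 CPM at 11.1 mM. Aldh18a1 was past 1.5-fold at neither concentration, at 25.8 and 18.2 CPM at 3.9 mM, and at 26.5 and 24.6 CPM at 11.1 mM. Thus Mthfd2 and Mthfd1l, neighbours in mitochondrial folate metabolism, had log2 ratios of opposite sign at 3.9 mM, 0.70 and -0.88. Shmt2 stood between 11.7 and 16.7 CPM in the 4 libraries.

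Cbs, the transsulfuration enzyme, had the widest range of any member in beta-like cells. It stood at 4.18 CPM (310 UMIs) and 4.25 CPM (227 UMIs) with vehicle and imeglimin at 3.9 mM glucose, and at 29.7 CPM (2045 UMIs) and 11.1 CPM (779 UMIs) at 11.1 mM. The vehicle library at 11.1 mM was above the other 3. The log2 ratio of imeglimin to vehicle was 0.02 at 3.9 mM and -1.42 (-1.54 to -1.30) at 11.1 mM, and the share of thinned beta-like cells with a Cbs UMI was 1.32%, 0.849%, 6.88% and 3.07% in the same order of libraries.

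In beta-like cells the members past 1.5-fold went in both directions. At 3.9 mM glucose 7 members reached 20 CPM in either library, of which 3 were at least 1.5-fold higher with imeglimin (Asns, Phgdh and Mthfd2), beside 12.1% of 6024 genes, and 1 was lower (Pycr1), beside 10.6%. At 11.1 mM glucose 8 members reached it, of which 1 was higher (Psat1), beside 5.69% of 5640 genes, and 1 was lower (Cbs), beside 4.61%. Pycr1 at 3.9 mM and Cbs at 11.1 mM reached 20 CPM only with vehicle and could only be lower. Psat1 at 11.1 mM reached it only with imeglimin and could only be higher. The median log2 ratio over the 10 members at any level was -0.01 at 3.9 mM and 0.04 at 11.1 mM. Over the genes that reached 20 CPM, which is an unlike set, it was 0.10 and 0.11. The 3.9 mM count is sensitive to scaling: under plain CPM, and under CPM without hormone and mitochondrial genes, 0 members were 1.5-fold higher, with Asns no lower than 0.38, Mthfd2 0.40 and Phgdh 0.36 on the log2 scale. Phgdh was also under 1.5-fold with per-cell means and with coarser clusters (log2 0.57 in each). The split of all genes moved with it, since 53.2% of the genes past 1.5-fold at 3.9 mM were higher under TMM and 12.3% under plain CPM, and 55.2% and 46.9% at 11.1 mM. The median over the genes that reached 20 CPM at 3.9 mM was 0.10 under TMM and -0.24 under plain CPM. Beta-like cells too sat in different clusters, mostly clusters 9 and 11 with vehicle and 13 and 14 (led by Snhg1) with imeglimin at 3.9 mM, and the beta markers summed to 144012 and 263220 CPM there.

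**Figure D4:**
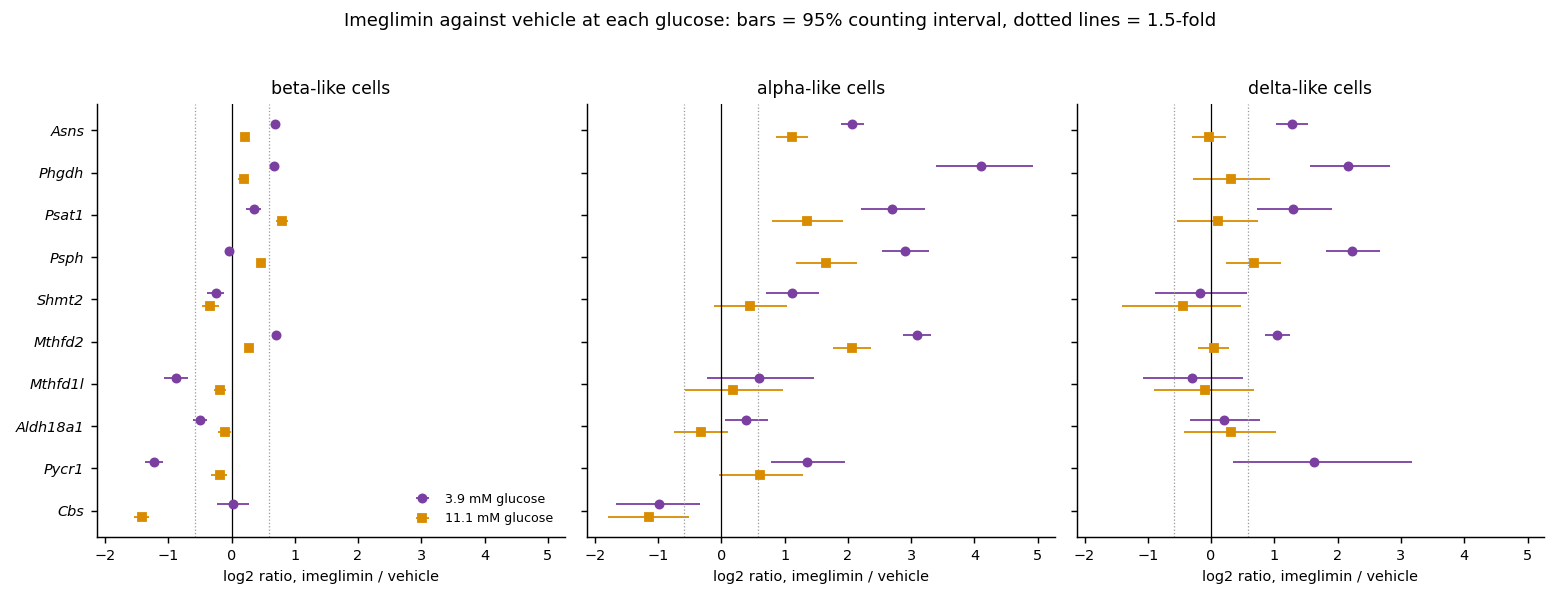
Log2 ratio of imeglimin to vehicle for each gene (y axis) at 3.9 and 11.1 mM glucose in beta-like, alpha-like and delta-like cells, with 95% counting intervals as bars; genes with 3 UMIs or fewer in a library are not drawn. Phgdh lies at 4.11 in alpha-like and 0.67 in beta-like cells at 3.9 mM, and Pycr1 lies at 1.36 and -1.22.

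Set side by side within a library, alpha-like levels of Asns, Phgdh, Psat1, Psph and Mthfd2 were below beta-like levels with vehicle, and the fold between the classes was smaller with imeglimin. In plain CPM, which the classes share, Mthfd2 was 10.6-fold lower in alpha-like than in beta-like cells with vehicle at 3.9 mM glucose (33.0 against 351 CPM) and 1.89-fold lower with imeglimin (244 against 462 CPM). At 11.1 mM it was 5.18-fold lower with vehicle and 1.59-fold lower with imeglimin. Psph was 6.93-fold lower in alpha-like cells with vehicle at 3.9 mM and 1.19-fold higher with imeglimin (79.6 against 66.7 CPM), and at 11.1 mM 4.01-fold and 1.87-fold lower. Psat1 was 3.15-fold lower with vehicle and 1.74-fold higher with imeglimin at 3.9 mM, and 1.95-fold and 1.41-fold lower at 11.1 mM. Phgdh was 19.7-fold lower with vehicle, on 16 alpha-like UMIs, and 1.69-fold lower with imeglimin at 3.9 mM, and still 2.27-fold lower with imeglimin at 11.1 mM. Asns was 4.51-fold and 1.62-fold lower at 3.9 mM, and 2.80-fold and 1.59-fold lower at 11.1 mM. Shmt2 was 1.73-fold lower with vehicle and 1.59-fold higher with imeglimin at 3.9 mM, and 1.32-fold lower and 1.24-fold higher at 11.1 mM. Mthfd1l was 3.91-fold and 1.31-fold lower at 3.9 mM, and 3.81-fold and 3.12-fold lower at 11.1 mM. Each class ratio and each imeglimin ratio uses the same library sums, so they are not separate evidence.

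Delta-like cells had Asns, Phgdh, Psat1, Psph and Mthfd2 past 1.5-fold higher with imeglimin at 3.9 mM glucose, and of these 5 only Psph at 11.1 mM. Psph stood at 27.2 and 127 CPM with vehicle and imeglimin at 3.9 mM (4.68-fold), and at 40.5 and 64.4 CPM at 11.1 mM (log2 0.67, and 0.45 or 0.58 with coarser or per-library clusters). Phgdh stood at 13.1 and 58.7 CPM at 3.9 mM (4.49-fold), and at 23.6 and 29.5 CPM at 11.1 mM. Asns stood at 84.7 and 205 CPM at 3.9 mM (2.42-fold), and at 134 and 131 CPM at 11.1 mM. For all 3 genes the imeglimin library at 3.9 mM was the highest of the 4. Psat1 and Mthfd2 were 2.45-fold and 2.06-fold higher at 3.9 mM, and 1.08-fold and 1.03-fold higher at 11.1 mM.

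Of the 4 members that reached 50 CPM in delta-like cells at 3.9 mM glucose, 4 were at least 1.5-fold higher with imeglimin (Asns, Phgdh, Psph and Mthfd2), beside 12.7% of 3563 genes higher and 7.44% lower. At 11.1 mM 3 reached it and 1 was higher (Psph), beside 3.74% of 3420 genes, and 0 were lower, beside 3.36%. Phgdh and Psph at 3.9 mM (13.1 and 27.2 CPM with vehicle) reached 50 CPM only with imeglimin. So did Psph at 11.1 mM (40.5 CPM with vehicle). In these cases the member could only be higher. The delta-like cells of the imeglimin library at 3.9 mM came mostly (81.4%) from cluster 27, led by Hhex and Sst, and those of the other 3 libraries mostly (93.1% to 98.4%) from cluster 26, led by Sst and Arg1. Ins2 in the first of these was at 9.14% of its beta-like level, against 1.19% to 3.19% in the others. With coarser clusters 2 of the members were counted higher at 3.9 mM in place of 4, Asns and Psph at log2 ratios of 0.78 and 1.33, while Mthfd2 was at 0.50 and Phgdh, at 1.40, no longer reached 50 CPM. The part of class naming in these values was not tested.

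The remaining classes had fewer cells, 64 to 378 per library, and are given for Mthfd2 and Asns, which were best counted. In pancreatic polypeptide-like cells Mthfd2 stood at 74.5 and 238 CPM with vehicle and imeglimin at 3.9 mM glucose, and at 68.8 and 172 CPM at 11.1 mM. In endothelial-like cells it stood at 120 and 444 CPM at 3.9 mM, and at 132 and 246 CPM at 11.1 mM. In macrophage-like cells it stood at 40.5 and 233 CPM at 3.9 mM, and at 41.3 and 77.1 CPM at 11.1 mM. These 3 classes thus had Mthfd2 higher with imeglimin at both glucose concentrations. In stromal-like cells it stood at 244 and 317 CPM at 3.9 mM, and at 142 and 253 CPM at 11.1 mM.

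Asns in pancreatic polypeptide-like cells stood at 69.7 and 205 CPM at 3.9 mM glucose, and at 87.1 and 140 CPM at 11.1 mM. In endothelial-like cells Asns stood at 106 and 236 CPM, and at 84.6 and 109 CPM. In stromal-like cells it stood at 103 and 162 CPM, and at 109 and 136 CPM. In macrophage-like cells it stood at 10.8 and 52.9 CPM at 3.9 mM, and at 11.1 mM it went the other way, at 12.7 and 6.86 CPM, on 8 and 4 UMIs. Members at any level at 3.9 mM, leaving out those with 3 UMIs or fewer in both libraries, were past 1.5-fold upward with imeglimin for 7 of 9 in polypeptide-like cells and downward for 0. The counts were 5 and 0 of 9 in endothelial-like cells, 6 and 2 of 8 in macrophage-like cells, and 1 and 2 of 9 in stromal-like cells, some of them on 3 UMIs or fewer in a library. No share over all genes at any level is given beside these counts. In endothelial-like cells Mthfd1l had an order of its own, at 14.8 and 10.4 CPM at 3.9 mM, and at 58.8 and 17.0 CPM at 11.1 mM.

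Counts of members past 1.5-fold in these classes cover the few that reached 50 CPM. Some of them reached it only with imeglimin and so could only be higher. At 3.9 mM these were Phgdh and Psph in polypeptide-like, Psph in endothelial-like, and Asns and Mthfd2 in macrophage-like cells. At 11.1 mM they were Mthfd2 in macrophage-like, and Phgdh and Psat1 in stromal-like cells. Mthfd1l in endothelial-like and Shmt2 in stromal-like cells reached it at 11.1 mM only with vehicle, and so could only be lower. With imeglimin at 3.9 mM glucose, 4 of 4 were higher in polypeptide-like cells (beside 14.4% of all genes, with 8.21% lower) and 3 of 3 in endothelial-like cells (beside 8.87%, with 12.2% lower). In macrophage-like cells 2 of 2 were higher (beside 11.8%, with 22.3% lower) and in stromal-like cells 1 of 5 (Asns, beside 13.2%, with 18.9% lower). At 11.1 mM, 2 of 2 were higher in polypeptide-like cells (beside 9.39%, with 7.43% lower) and 1 of 1 in macrophage-like cells (beside 12.4%, with 12.5% lower). In endothelial-like cells 1 of 3 was higher (Mthfd2) and 1 lower (Mthfd1l), beside 10.1% and 10.0%, and in stromal-like cells 2 of 6 were higher (Phgdh and Mthfd2) and 1 lower (Shmt2), beside 10.3% and 12.8%. Mthfd2 was among the higher members in each of these 4 classes at 3.9 mM except stromal-like cells.

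**Figure D5:**
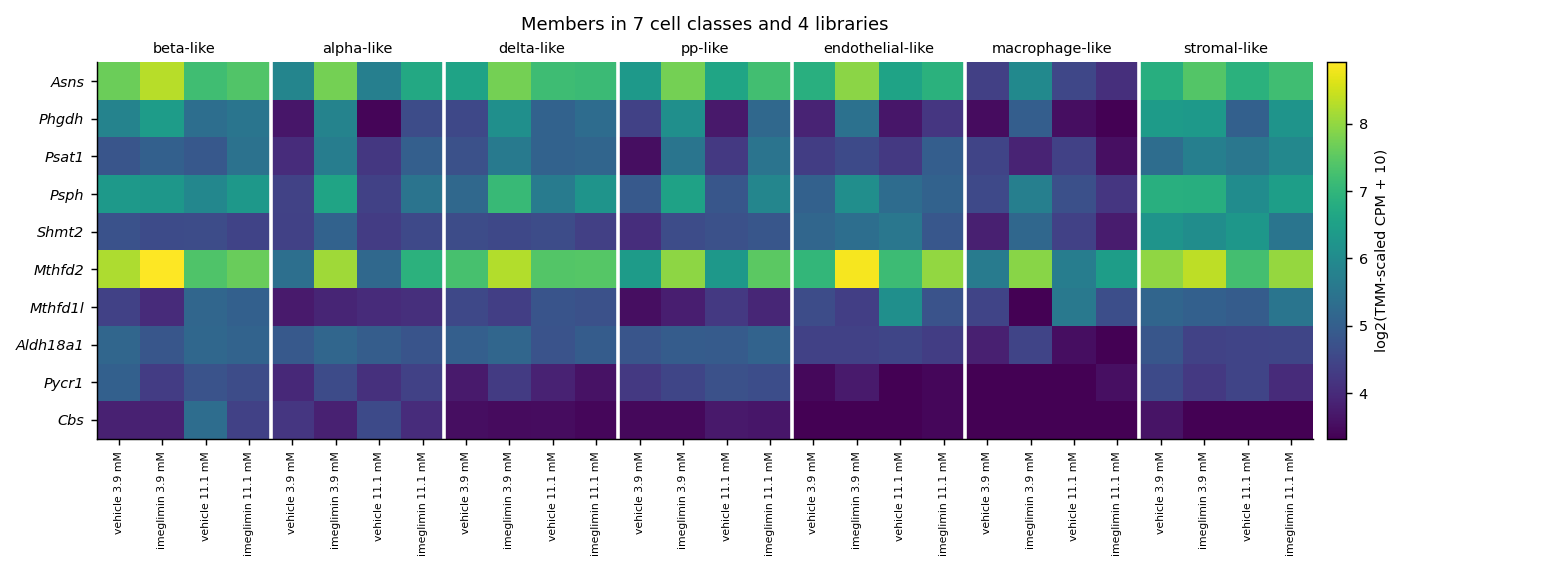
Heat map of log2(CPM + 10) of the 10 genes (rows) in 7 cell classes and 4 libraries (columns), with TMM scaling separate for each class. Lighter (yellow) cells are higher levels, and pp-like stands for pancreatic polypeptide-like; in all 7 classes Mthfd2 and Asns are lighter with imeglimin than with vehicle at 3.9 mM glucose, as in endothelial-like cells, where Mthfd2 stands at 120 and 444 CPM.

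The glucose comparisons use the same 4 libraries as the imeglimin comparisons. In beta-like cells Cbs and Mthfd1l were higher at 11.1 mM than at 3.9 mM glucose with vehicle, by 7.10-fold (log2 2.83, interval 2.65 to 3.0) and 2.35-fold, and with imeglimin by 2.61-fold and 3.82-fold. Mthfd2 was 1.85-fold lower at 11.1 mM with vehicle and 2.48-fold lower with imeglimin. Phgdh was 1.53-fold and 2.12-fold lower, and Asns 1.40-fold and 1.95-fold lower. Under TMM, higher glucose thus went with more RNA for Mthfd1l and Cbs and less for Mthfd2, Phgdh and Asns. The median log2 ratio over the genes that reached 20 CPM was itself below 0, at -0.17 with vehicle and -0.15 with imeglimin. With vehicle, Asns was past 1.5-fold lower in 1 of 14 alternative settings, Phgdh in 10 and Mthfd2 in 14. Psph was 1.39-fold lower with vehicle, and its ratio with imeglimin was 1.02.

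With vehicle 8 members reached 20 CPM in beta-like cells, of which 2 were at least 1.5-fold higher at 11.1 mM glucose (Cbs and Mthfd1l), beside 9.75% of 5929 genes, and 2 lower (Phgdh and Mthfd2), beside 21.2%. With imeglimin 7 reached it, of which 1 was higher (Mthfd1l), beside 14.7% of 6050 genes, and 3 lower (Asns, Phgdh and Mthfd2), beside 24.4%. With vehicle Cbs and Mthfd1l (4.18 and 11.1 CPM at 3.9 mM) reached 20 CPM only at 11.1 mM and could only be higher. With imeglimin the same held for Mthfd1l (6.02 CPM at 3.9 mM). Of the genes past 1.5-fold with vehicle, 31.5% were higher under TMM, 7.32% under plain CPM and 58.1% under CPM without hormone and mitochondrial genes. Cbs ranked 15th from the top of the 5929 genes with vehicle and Mthfd1l 135th, and Mthfd1l ranked 63rd of 6050 with imeglimin. Asns, Phgdh and Mthfd2 ranked 4314th, 4747th and 5360th from the top with vehicle, so many other genes were lower still than Asns and Phgdh. With imeglimin these 3 ranked 5449th, 5628th and 5825th.

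In alpha-like cells no member reached 50 CPM with vehicle at either glucose concentration, where 0.887% of 3043 genes were at least 1.5-fold higher at 11.1 mM and 0.526% lower, and over the 10 members the median log2 ratio of 11.1 to 3.9 mM was 0.04. With imeglimin 3 members reached it (Asns, Psph and Mthfd2) and all 3 were at least 1.5-fold lower at 11.1 mM, beside 3.33% of 3186 genes, by 2.18-fold, 2.49-fold and 2.38-fold. Psph reached 50 CPM only at 3.9 mM (86.6 CPM, and 34.7 CPM at 11.1 mM) and could only be lower. In delta-like cells Asns was 1.58-fold higher at 11.1 mM with vehicle and 1.57-fold lower with imeglimin, and 4 of the 4 members that reached 50 CPM with imeglimin were lower, beside 6.46% of 3515 genes lower and 5.89% higher. Of these, Phgdh reached 50 CPM only at 3.9 mM (58.7 CPM, and 29.5 CPM at 11.1 mM) and could only be lower. With vehicle 1 of 2 was higher (Asns), beside 2.49% of 3370 genes, and 0 were lower, beside 1.25%. With coarser clusters, or clusters of each library alone, the count of lower members with imeglimin was 0 in place of 4.

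Which members were lower at 11.1 than at 3.9 mM glucose with imeglimin differed between the smaller classes. Of the members at 50 CPM with imeglimin, 2 of 4 were at least 1.5-fold lower at 11.1 mM in polypeptide-like cells (Phgdh and Psph, beside 3.79% of all genes, with 2.31% higher), and 3 of 3 in endothelial-like cells (Asns, Psph and Mthfd2, beside 4.88%, with 8.41% higher). In macrophage-like cells 2 of 2 were lower (Asns, on 4 UMIs at 11.1 mM, and Mthfd2, beside 11.4%, with 18.9% higher), and in stromal-like cells 1 of 6 (Shmt2, beside 9.18%, with 12.9% higher). With vehicle, 0 of 2 were past 1.5-fold in polypeptide-like cells (beside 3.09% higher and 2.48% lower), and 1 of 3 was higher in endothelial-like cells (Mthfd1l, beside 6.53%, with 5.72% lower). In stromal-like cells 3 of 5 were lower with vehicle (Phgdh, Psph and Mthfd2, beside 8.58%, with 10.6% higher), and no member reached 50 CPM in macrophage-like cells, where 9.21% of genes were higher and 7.41% lower. Some of the members counted here reached 50 CPM in only 1 library, so their direction was fixed. With imeglimin these were Phgdh and Psph in polypeptide-like, Psph in endothelial-like, Asns in macrophage-like and Shmt2 in stromal-like cells. With vehicle they were Phgdh in stromal-like and Mthfd1l in endothelial-like cells.

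Few genes next to the members in metabolism reached the level for counting in alpha-like cells. Of 10 genes of serine and glycine breakdown and exchange, 2 reached 50 CPM there at 3.9 mM glucose and 0 were past 1.5-fold with imeglimin, beside 13.4% of all genes higher and 7.62% lower. Of 24 genes of the folate and methionine cycles 4 reached it, and 1 was higher (Mat2a) and 0 lower, and at 11.1 mM 5 reached it, with 0 higher and 1 lower (Mthfd2l), beside 6.55% and 4.88%. Mthfd1, the cytosolic counterpart of the mitochondrial folate enzymes, stood at 44.4 and 34.7 CPM with vehicle and imeglimin at 3.9 mM, and at 48.5 and 24.2 CPM at 11.1 mM. Mthfd2l, the isoenzyme of Mthfd2, stood at 48.0 and 34.7 CPM, and at 56.2 and 35.1 CPM. Both were past 1.5-fold lower with imeglimin at 11.1 mM and not at 3.9 mM (log2 -0.36 and -0.47), while Mthfd2 was higher at both. Shmt1, the cytosolic counterpart of Shmt2, and Cth, which acts after Cbs, were each under 2 CPM in all 4 alpha-like sums.

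Aldh1l2, the mitochondrial formyltetrahydrofolate dehydrogenase, followed Mthfd2 in alpha-like cells, at 2.21 and 34.2 CPM at 3.9 mM glucose and at 2.65 and 11 CPM at 11.1 mM. In beta-like cells it did not, at 59.3 and 27.1 CPM at 3.9 mM and at 50.8 and 78.1 CPM at 11.1 mM. Got1, the cytosolic transaminase that makes aspartate, stood in alpha-like cells at 30.0 and 75 CPM, and at 27.0 and 45.8 CPM. In beta-like cells Got1 stood at 103 and 101 CPM at 3.9 mM, and at 31.5 and 65.9 CPM at 11.1 mM, so imeglimin and vehicle differed there at 11.1 mM. Glul, glutamine synthetase, was lower with imeglimin in beta-like cells at 11.1 mM (231 and 147 CPM). Sqor, which oxidises the hydrogen sulfide that CBS can release, was lower with imeglimin in beta-like cells at both glucose concentrations (log2 ratios -0.76 and -0.71) and in alpha-like cells (-0.90 and -0.85).

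Among genes known to act with ATF4, most of those that reached 50 CPM in alpha-like cells were higher with imeglimin at 3.9 mM glucose. Of 19 such regulators and stress genes, 11 reached 50 CPM at 3.9 mM glucose, and 9 were at least 1.5-fold higher and 0 lower (median log2 ratio 2.03, against 0.09 over all genes). Of 20 cytosolic tRNA synthetases 12 reached it, with 9 higher and 0 lower (median 1.02), and of 10 amino acid transporters 4 reached it, with 4 higher (median 1.30), beside 13.4% of all genes higher and 7.62% lower. At 11.1 mM 6 of 8 regulators (median 1.14), 3 of 9 synthetases (median 0.29) and 1 of 2 transporters (median 0.60) were higher and 0 lower, beside 6.55% of all genes higher and 4.88% lower. Between the vehicle libraries only 5 regulators, 8 synthetases and 2 transporters reached 50 CPM in either. The others counted at 3.9 mM therefore reached it only with imeglimin and could only be higher. These lists were chosen with results of these data known. Atf4 itself stood at 85.1 and 272 CPM at 3.9 mM, and at 98.1 and 173 CPM at 11.1 mM. Ddit3, the stress factor CHOP, stood at 75.2 and 507 CPM, and at 28.4 and 174 CPM. Trib3, a pseudokinase of the same response, stood at 6.13 and 69.2 CPM, and at 2.65 and 19.7 CPM. All 3 had the order of libraries seen for Mthfd2, in that both imeglimin libraries were above both vehicle libraries.

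In beta-like cells 15 of the 19 regulators reached 20 CPM at 3.9 mM glucose, with 5 higher and 1 lower (median 0.35, beside 12.1% and 10.6% of all genes), and 13 at 11.1 mM, with 7 higher and 0 lower (median 0.65, beside 5.69% and 4.61%). Atf4 stood there at 250 and 318 CPM at 3.9 mM, and at 181 and 318 CPM at 11.1 mM. The log2 ratio of Atf4 at 11.1 mM was 0.82, beside 0.21 for Asns and 0.27 for Mthfd2, and at 3.9 mM it was 0.35, beside 0.69 and 0.70. Slc3a2, the heavy chain that pairs with Slc7a5 and other amino acid transporters, stood at 332 and 616 CPM at 3.9 mM, and at 152 and 231 CPM at 11.1 mM. Trib3 stood at 127 and 126 CPM at 3.9 mM, and at 24.5 and 78.5 CPM at 11.1 mM. Glycolysis genes upstream and downstream of 3-phosphoglycerate had another order. Of 8, all of which reached 20 CPM in beta-like cells, 7 were higher and 1 lower at 11.1 than at 3.9 mM glucose with vehicle (median 1.39, against -0.17 over all genes, beside 9.75% and 21.2% of all genes), and 0 were higher and 4 lower with imeglimin at 3.9 mM (beside 12.1% and 10.6%). Pgk1, which makes 3-phosphoglycerate, stood at 139 and 82.9 CPM with vehicle and imeglimin at 3.9 mM, and at 442 and 513 CPM at 11.1 mM. Among the members, Mthfd1l was likewise lower with imeglimin at 3.9 mM and higher at 11.1 than at 3.9 mM glucose, but its vehicle library was the upper one at 11.1 mM.

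Over the 28 sums of 7 classes in 4 libraries, the genes most like each member were found by Pearson's r of log2(CPM + 10) among 10376 genes. These sums share libraries, cells of the same islets and depth, so r is a description. Phgdh and Psph were each other's closest gene (r = 0.957). Asns was closest to Slc7a5 (r = 0.917), a transporter of large neutral amino acids, and Psat1 to Slc6a9 (r = 0.840), a glycine transporter. Mthfd2 was closest to Eif1 (r = 0.894) and Trib3 (r = 0.892), and then to Aars (r = 0.882), the alanyl-tRNA synthetase. Mthfd1l was closest to Fam162a (r = 0.842) and then to the glycolytic Pgk1 (r = 0.803) and Aldoa (r = 0.795). Cbs was closest to Maob (r = 0.893), monoamine oxidase B, then Ddc (r = 0.864) and Ffar1 (r = 0.859), the fatty acid receptor of beta cells. Aldh18a1, Pycr1 and Shmt2 were closest to Prnp (r = 0.903), Wls (r = 0.849) and Kirrel (r = 0.887), so none of the 3 had another member as its closest gene.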

How the data were processed

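The deposited files hold raw UMI counts per gene and cell barcode for each library, made by the authors with Cell Ranger 6.0.2 on mm10, per the submitters' processing notes; settings are not given in the sources used here. Kept barcodes had 1000 or more UMIs and 500 or more genes, with a mitochondrial share of 20% or less. Cells were normalised, clustered (scanpy 1.11.5, 2000 variable genes, 30 principal components, Leiden resolution 1.0) and named from marker lists, a cluster staying unnamed where another class's hormones or markers led it. Scrublet called 0 doublets in every library and is taken not to have worked, so doublets were not removed; removal of the highest scores was an alternative. UMIs were summed per library and class, scaled with TMM (edgeR 4.0.16, R 4.3.3) within each class, and compared as log2 ratios with exact conditional intervals (scipy 1.17.1) for counting error. Differences between log2 ratios had intervals from a normal approximation, and shares of cells had exact binomial intervals. With 1 library per condition no test was run, so neither edgeR's nor DESeq2's tests were used; DESeq2 1.42.0 size factors were an alternative scaling. A sum of 0 was set against a floor of 3 UMIs. Past-threshold counts are of genes at 20 CPM in beta-like, or 50 CPM in other classes, in either library, at a ratio of 1.5-fold. A gene that reached this level in only 1 library of a comparison could be counted only as higher there, or not at all. The interval calculation was tested on simulated data.

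The members and the pathway lists were chosen with earlier results of these data known, and details of class naming were settled after seeing the data. Genes named outside the members came from a rule on each pathway list (isoenzymes of members, Atf4, Ddit3 and Trib3, and up to 4 genes per list with the largest imeglimin ratios in beta-like cells) and from the 3 genes most like each member. Promoter stretches are from RefSeq (GRCm38.p6, the genome also called mm10), with 10 of 10 members matched. Reads of overlapping or antisense genes cannot be told apart from the sources used here. A 3′ UMI count is of reads near a transcript's end, so levels are not compared between genes. Alternatives were other scalings, filters on cells and genes, coarser or per-library clusters, thinning to 3000 UMIs, per-cell means and, added after seeing the data, low-UMI clusters joined to beta-like cells and beta-cell RNA subtracted. Some genes that these rules name are not reported here.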

Additional observations from a re-analysis of the deposited data

Results flagged for a closer look

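Some log2 ratios had opposite signs in a pair of classes or conditions. None of these differences was tested, since each condition has 1 library. With imeglimin against vehicle at 3.9 mM glucose, Pycr1 was higher in alpha-like cells (1.36) and lower in beta-like cells (-1.22), a difference of 2.58. In delta-like cells Pycr1 stood at 1.63, which differs from the beta-like ratio by 2.85. Shmt2 stood at 1.11 in alpha-like and -0.25 in beta-like cells, a difference of 1.36, and Aldh18a1 at 0.39 and -0.50, a difference of 0.89.

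The ratio of 11.1 to 3.9 mM glucose changed sign between vehicle and imeglimin for other genes. For Pycr1 in beta-like cells it was -0.44 with vehicle and 0.58 with imeglimin, a difference of -1.02. In delta-like cells it was 0.66 and -0.65 for Asns (difference 1.31), 0.86 and -0.99 for Phgdh (difference 1.85), and 0.57 and -0.98 for Psph (difference 1.55). The delta-like values rest on cells that fall mostly into another cluster in the imeglimin library at 3.9 mM.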

How the results depend on the processing

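No paired analysis was possible because each condition has 1 library, and no library could be left out. Of the ratios past 1.5-fold, the alternatives kept 12 to 16 of 16 in beta-like, 19 to 23 of 23 in alpha-like and 7 to 15 of 15 in delta-like cells, and 1 ratio changed sign: Phgdh in delta-like cells, 11.1 against 3.9 mM glucose with imeglimin, from -0.99 to 0.06 in cells of 10000 or more UMIs and at most 5% mitochondrial UMIs. The cause of the moves below was not tested, beyond what the settings themselves change.

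In beta-like cells, imeglimin against vehicle at 3.9 mM glucose had 0 members higher (in place of 3) and 2 lower (in place of 1) under plain CPM and under CPM without hormone and mitochondrial genes, and 2 lower at a minimum of 5 CPM. Between glucose concentrations with vehicle the count lower went from 2 to 5 under plain CPM, and to 1 without hormone and mitochondrial genes, with DESeq2 size factors, with the mean of per-cell CPM and in the deep cells. With imeglimin the count higher went from 1 to 4 without hormone and mitochondrial genes, and to 2 with per-cell means and at 5 CPM. In unthinned beta-like cells 1 member, in place of 3, had a higher share of cells with a UMI at 3.9 mM.

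At a minimum of 5 CPM, which admits more members, the alpha-like counts were 7 higher and 1 lower with imeglimin at 3.9 mM, 6 higher and 1 lower at 11.1 mM, 2 higher at 11.1 mM glucose with vehicle and 6 lower at 11.1 mM glucose with imeglimin. No share over all genes at 5 CPM is given for any of the counts at that minimum, in this class or the others. In delta-like cells the count higher with imeglimin at 3.9 mM went from 4 to 2 with coarser clusters, and that at 11.1 mM from 1 to 2 in the deep cells and to 0 with coarser or per-library clusters. Between glucose concentrations with vehicle the delta-like count higher went from 1 to 0 under plain CPM and with coarser or per-library clusters, and to 2 at 5 CPM. With imeglimin the count lower went from 4 to 2 in the deep cells and to 0 with coarser or per-library clusters, and 1 was higher at 5 CPM.

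Over the pairs of a member and one of the other 4 classes, 5 CPM gave counts of 17 (higher) and 4 (lower) for imeglimin at 3.9 mM (in place of 10 and 0), and 12 higher and 10 lower at 11.1 mM (6 and 2). It gave 7 higher and 5 lower between glucose concentrations with vehicle (1 and 3), and 4 higher and 14 lower with imeglimin (0 and 8). Per-cell means gave 1 lower with imeglimin at 11.1 mM and 0 higher between glucose concentrations with vehicle. Thinning gave 1 lower with imeglimin at 11.1 mM, and cells of 3000 or more UMIs gave 1 higher between glucose concentrations with imeglimin. The other classes were not run in the deep cells, since too few were left. Depth limits the members under 10 CPM most, as Phgdh in alpha-like cells with vehicle.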

Other observations

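Among clusters left unnamed, cluster 2 (170 cells led by the acinar digestive enzyme genes Ctrb1 and Try4, with hormone RNA of another class) had Asns at 143 CPM, Mthfd2 at 172 CPM and Cbs at 18 CPM over all libraries. Cluster 42 (254 cells, mostly of the vehicle library at 3.9 mM glucose and led by Lcn2 and Sprr1a) had Mthfd1l at 45.4 CPM and Asns at 163 CPM. Cluster 28 (181 cells, mostly of the imeglimin library at 3.9 mM and led by Sst and Hhex) had the 10 genes together at 942 CPM, and cluster 19 (188 cells, mostly of the vehicle library at 3.9 mM and led by Arg1 and Sst) at 237 CPM. These clusters entered no comparison.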
